A study of Homo sapiens with 9 samples.

Results

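A set of 9 genes of matrix breakdown and matrix crosslinking were examined for open chromatin in MDA-MB-231 cells, an established mesenchymal line of triple-negative breast cancer. They were 9 of 20033 protein-coding genes and were taken from a list of invasion genes: the metalloproteinases MMP1, MMP2, MMP3, MMP9 and MMP14, the urokinase pair PLAU and PLAUR, and the lysyl oxidases LOX and LOXL2. The study asked how EZH2, the methyltransferase of the Polycomb complex PRC2, and E2F1, a cell cycle transcription factor, act together on chromatin. ATAC-seq, in which the Tn5 transposase cuts accessible DNA, gave 1 peak list for each of 9 libraries. Of these, 2 carried a control shRNA (shCtrl), 2 an shRNA against EZH2 (shEZH2), 2 one against E2F1 (shE2F1) and 1 one against SUZ12 (shSUZ12), another PRC2 subunit. The shRNA cells, controls included, had 24 h of lentivirus and 72 h of selection in 2 μg/ml puromycin. The other two lists came from cells given DMSO or GSK126, an EZH2 inhibitor applied for 72 h, with 1 library each. Nothing in the sources used here says that the numbered replicates came from separate cultures, so a p-value measures the spread between these libraries only. Peak lists hold no transcript level, so the depletion of EZH2, E2F1 and SUZ12 was not checked here.

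Collagens and other matrix proteins form a barrier that an invading cell must cut. The secreted collagenase MMP1, the stromelysin MMP3 and the gelatinases MMP2 and MMP9 degrade matrix outside the cell, whereas MMP14 is anchored in the membrane and activates pro-MMP2. Urokinase, the product of PLAU, binds its receptor PLAUR at the cell surface and turns plasminogen into plasmin. LOX and LOXL2 instead crosslink collagen and elastin, which stiffens the matrix.

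Each list gave a fold enrichment for every peak, the ratio of tags at the summit to a local background. Because the lists differed in depth, fold enrichments were turned into percentiles within their own list, with 100 for the strongest peak. The promoter was the window of 1 kb on either side of the canonical transcription start site (TSS), and distal regions lay up to 100 kb beyond the ends of the transcript. The lists held between 58626 peaks (shEZH2 replicate 2) and 85812 peaks (shE2F1 replicate 2), and the most frequent background ranged from 1.41 to 2.18 tags in these 2 libraries. A gene without a peak had no region past the threshold of the list, which is not the same as closed chromatin. A weaker peak in a bulk library can come from fewer cells or from less cutting per cell, and these cannot be told apart. The promoters of 5 of 5 genes that this line uses (VIM, CD44, AXL, ZEB1 and CAV1) had a peak in all 9 lists, and 0 of 4 promoters of blood and endothelial genes had one in any list. Of 6 luminal or epithelial genes, 3 had a promoter peak in all 9 lists and 3 in some lists, so these peaks did not follow the mesenchymal label.

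MMP14, PLAUR, LOX and LOXL2 had a promoter peak in 9 of 9 lists, MMP2 and MMP3 had none in any list, and MMP1, MMP9 and PLAU had one in some lists. The share with a peak in all lists was 44.4% of the 9 genes, beside 60% of all protein-coding promoters. The share without any peak was 22.2%, beside 29.1% of all protein-coding promoters. These counts take any peak that overlaps the window. With the summit required inside the window LOX had a peak in 2 lists, and 3 genes had one in all lists.

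**Figure D1:**
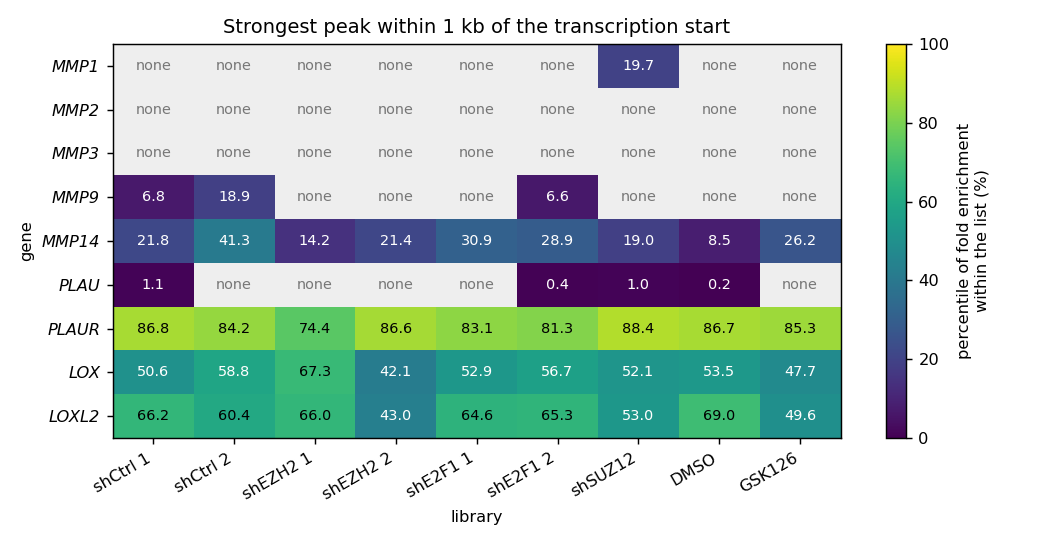
Percentile of fold enrichment of the strongest peak overlapping the promoter window, by gene (rows) and library (columns). The window is 1 kb on either side of the start site, and "none" marks lists with no peak there. PLAUR stood highest in every list, at 74.4 to 88.4, through a peak in its first intron whose summit lay outside the window. The LOX summit also lay outside it in most lists, and MMP2 and MMP3 had no peak.

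For MMP1 the only peak in the canonical window was in the shSUZ12 list. It held 17 tags over a background of 2.86, at percentile 19.7, with its summit at -24 bp from the TSS. For MMP9 there were 3 lists with a peak: percentile 6.82 in shCtrl replicate 1 (19 tags), 18.9 in shCtrl replicate 2 (22 tags) and 6.60 in shE2F1 replicate 2 (18 tags). Both shEZH2 lists, shE2F1 replicate 1, shSUZ12, DMSO and GSK126 had none. The summit lay at -18 bp from the TSS in shCtrl replicate 1, and at -617 and -561 bp in the other two, so the peaks did not mark 1 place. When each list was cut to its 58626 most significant peaks, the length of the shortest list, no list kept a promoter peak at MMP9 or MMP1. With any annotated start counted, MMP1 had a peak in 5 lists and MMP2 in 2. For MMP2, 2 lists also had a peak once the window was widened to 2 kb, and MMP3 had none under any window or start site tried.

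The MMP14 promoter (chr14:22836259-22838484, GRCh38) had a peak of low to middle rank in every list. Its percentile was 21.8 and 41.3 in the shCtrl libraries, 14.2 and 21.4 with shEZH2, and 30.9 and 28.9 with shE2F1. It was 19.0 with shSUZ12, 8.54 with DMSO and 26.2 with GSK126. The 2 control replicates were farther apart than any other replicate pair at this promoter. Tags at the summit numbered 38 to 85, over backgrounds of 6.6 to 12.3. The RefSeq promoter (GRCh38.p14, chr14:22836335-22836634, plus strand) is shown because the summit lay within it in 8 of 9 lists; capitals mark a CACGT, the reverse complement of the hypoxia response word, from position -96 and a GC box from position -66, counted from the TSS.
MMP14 promoter: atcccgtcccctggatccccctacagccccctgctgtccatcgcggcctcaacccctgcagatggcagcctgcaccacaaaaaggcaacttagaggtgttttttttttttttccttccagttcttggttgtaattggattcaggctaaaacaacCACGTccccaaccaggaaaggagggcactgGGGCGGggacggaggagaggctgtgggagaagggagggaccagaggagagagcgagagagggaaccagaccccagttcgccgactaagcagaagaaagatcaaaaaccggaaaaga

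PLAU, which encodes urokinase, was the clearest case in which the canonical window missed the open chromatin of a gene. Over the canonical TSS a peak was called in 4 lists: at percentile 1.10 in shCtrl replicate 1 (63 tags over a background of 22.1), 0.404 in shE2F1 replicate 2 (46 over 17.7), 1.05 in shSUZ12 (72 over 25.6) and 0.206 in DMSO (54 tags). These tag numbers were close to those of the MMP14 promoter, but the local background was higher, and the fold enrichment was therefore among the lowest of its list. A second region, centred 2 kb upstream (chr10:73908715-73909576), had a peak in all 9 lists. Its percentile was 25.6 and 20.6 in shCtrl, 29.6 and 20.3 in shEZH2, 18.6 and 36.4 in shE2F1, 24.6 in shSUZ12, 27.7 in DMSO and 17.6 in GSK126. By the significance of the peak in place of its fold enrichment it ranked at 57.1 to 79.9. It contains the start of another annotated PLAU transcript, and with any annotated start counted PLAU joined the genes with a promoter peak in all lists, making 5 of 9. The 201 bases around the summit (chr10:73909064-73909264, plus strand) are shown because they mark this second start; the capitals are a GC box.
PLAU upstream region: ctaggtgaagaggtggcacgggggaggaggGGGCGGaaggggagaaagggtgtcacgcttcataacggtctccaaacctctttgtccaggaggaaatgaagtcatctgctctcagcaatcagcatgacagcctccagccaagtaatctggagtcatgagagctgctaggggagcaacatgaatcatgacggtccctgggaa

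PLAUR, the urokinase receptor, had the highest ranked promoter window of the 9 genes. The highest ranked peak of the window was not the one over the TSS but a separate peak in the first intron (chr19:43668274-43669431). Its summit lay 1283 to 1462 bp downstream of the TSS. The intron peak held 376 and 444 tags in shCtrl, 245 and 228 in shEZH2, 174 and 279 in shE2F1, 472 in shSUZ12, 456 in DMSO and 449 in GSK126. Its percentile by fold enrichment was 86.8 and 84.2, 74.4 and 86.6, 83.1 and 81.3, 88.4, 86.7 and 85.3 in the same order. By significance it stood between 99.7 and 99.99, near the top of every list. The peak over the TSS (chr19:43670040-43670455) held 68 to 137 tags and ranked at 0.490 to 6.27 by fold enrichment, where the background was 17.5 to 37.3 tags. A low rank by fold enrichment here does not mean a closed start site, as the MMP14 promoter summit held 38 to 85 tags. The intron peak was thus taller than the TSS peak in every library.

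**Figure D2:**
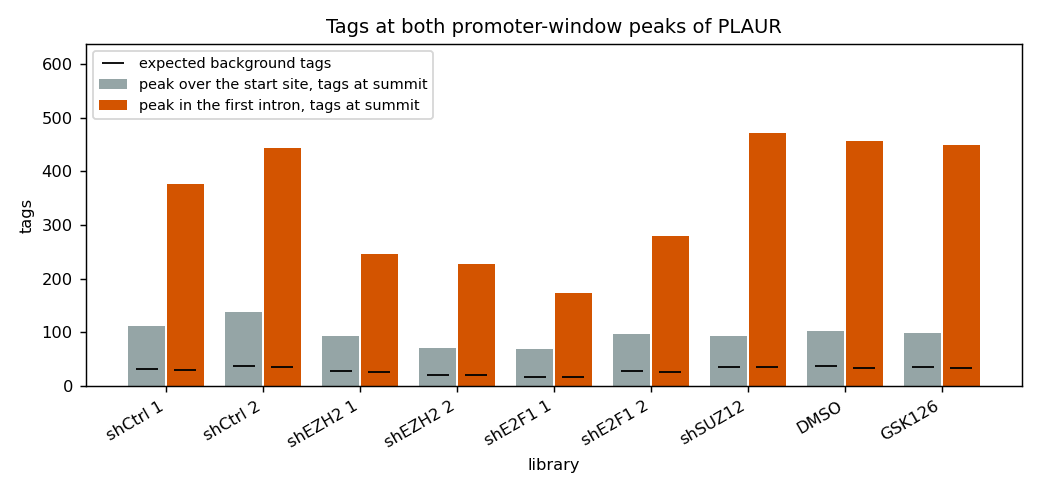
Tags at the summit of the peak over the PLAUR start site (grey bars) and of the peak in its first intron (orange bars) in each library, with the expected background as black dashes. The intron peak, at 174 to 472 tags, exceeded the start site peak, at 68 to 137 tags, in 9 of 9 libraries, and tag numbers are not scaled for depth.

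The sequences of both PLAUR places are shown because their contents differ. The promoter (RefSeq, GRCh38.p14, chr19:43670120-43670419, minus strand) holds 1 AP-1 word, TGACTCA or its reverse complement TGAGTCA, from position -186, and a hypoxia response word from position 11. The intron window (chr19:43668669-43668869, plus strand) holds 3 GC boxes, written there as the reverse complement CCGCCC, and no AP-1 word. Of the 12-base words in the 1001 bases around the intron summit, 13.4% occurred more than once, beside a median of 0% over 40606 regions with a peak in all 9 lists, of which 417 reached this value. Reads could be placed at up to 4 sites in the authors' alignment, and the part of this in the height of the intron peak was not tested.
PLAUR promoter: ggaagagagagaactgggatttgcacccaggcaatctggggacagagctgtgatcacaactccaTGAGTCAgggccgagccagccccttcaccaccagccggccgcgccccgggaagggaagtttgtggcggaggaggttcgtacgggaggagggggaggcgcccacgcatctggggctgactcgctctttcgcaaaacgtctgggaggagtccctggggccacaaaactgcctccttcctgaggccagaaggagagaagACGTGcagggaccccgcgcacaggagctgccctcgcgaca
PLAUR intron peak: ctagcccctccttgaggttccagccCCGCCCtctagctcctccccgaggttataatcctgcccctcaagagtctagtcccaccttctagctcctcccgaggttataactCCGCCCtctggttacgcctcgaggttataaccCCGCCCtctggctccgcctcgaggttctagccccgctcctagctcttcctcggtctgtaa

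LOX had 1 broad region over its promoter and first kilobases (chr5:122076675-122078721). Its percentile was 50.6 and 58.8 in shCtrl, 67.3 and 42.1 in shEZH2, 52.9 and 56.7 in shE2F1, 52.1 in shSUZ12, 53.5 in DMSO and 47.7 in GSK126. The shEZH2 libraries gave both the highest and the lowest value, so that the condition had no direction. The summit lay 1381 to 1452 bp downstream of the TSS in 8 lists and at -216 bp in shCtrl replicate 1. The RefSeq promoter of LOX, a gene known to respond to hypoxia (GRCh38.p14, chr5:122078210-122078509, minus strand), is shown for its 4 hypoxia response words, ACGTG on either strand, from positions -185, -116, -98 and -42. The other capitals are a GC box from position -79.
LOX promoter: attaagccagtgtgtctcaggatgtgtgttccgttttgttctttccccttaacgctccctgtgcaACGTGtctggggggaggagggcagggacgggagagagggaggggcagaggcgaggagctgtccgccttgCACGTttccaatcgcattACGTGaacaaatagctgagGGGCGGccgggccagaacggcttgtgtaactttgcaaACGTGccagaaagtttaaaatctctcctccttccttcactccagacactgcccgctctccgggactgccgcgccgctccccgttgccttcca

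LOXL2 had a promoter peak of similar rank (chromosome 8, 23403239 to 23404535). The percentile was 66.2 and 60.4 in shCtrl, 66.0 and 43.0 in shEZH2, and 64.6 and 65.3 in shE2F1. It was 53.0 in shSUZ12, 69.0 in DMSO and 49.6 in GSK126. The summit stayed between -130 and -89 bp from the TSS in all 9 lists, in contrast to the moving summits of LOX and MMP9. Values of shCtrl and shEZH2 overlapped, and so did those of shCtrl and shE2F1.

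As a description of likeness, the gene nearest to each of these 4 promoters over the 9 lists was sought among 12025 genes by the mean absolute difference in percentile. It was TBCK for PLAUR (1.65 points), RSRC1 for LOXL2 (4.10 points), HOMER3 for LOX (4.16 points) and NTF4 for MMP14 (5.91 points). None of the 4 belongs to the genes examined here.

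Beyond the promoters, peaks of the 9 lists merged into 194 regions in or near the 9 genes, of 118719 in the genome. A peak in all 9 lists was found in 83 of the 194 (42.8%), beside 34.2% of all regions, and 30 were seen in 1 list, beside 24.3% of all regions. By place, 8 were at promoters, 26 in gene bodies and 160 distal, and 28 distal regions overlapped the promoter of another gene. LOXL2 had the most regions, with 35, and also the longest transcript, at 107.2 kb. PLAU followed PLAUR (33 regions) with 30, of which 17 were in all lists. MMP1 and MMP3, neighbours in the metalloproteinase cluster of chromosome 11, had 14 and 13 regions, many of them shared, and only 1 each with a peak in all lists. MMP2 had 3 regions in all lists, and MMP9 had 9.

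**Figure D3:**
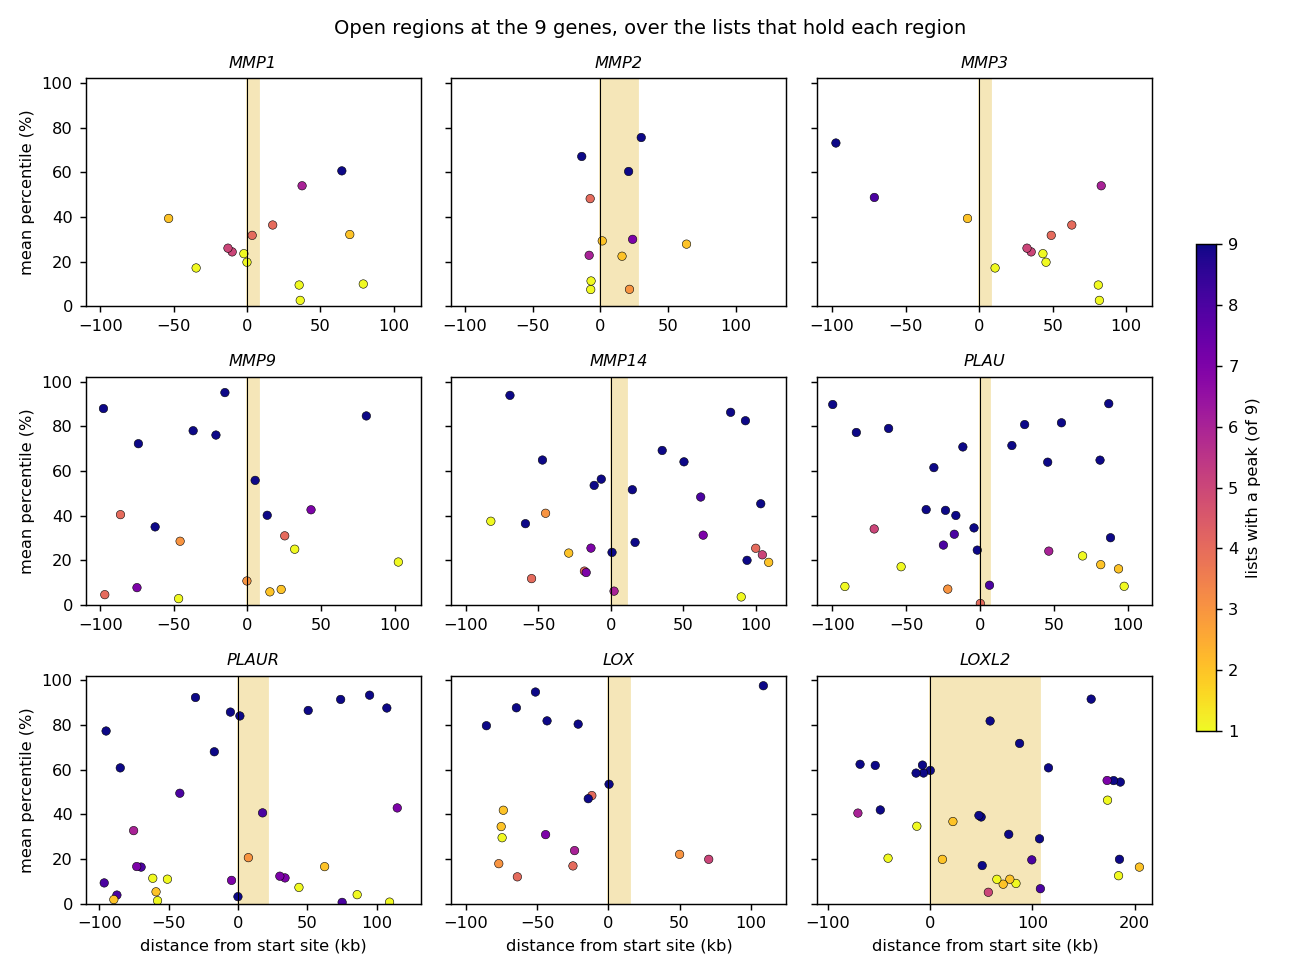
Regions at each gene by distance from its start site in the direction of transcription (kb) and mean percentile over the lists that hold a peak, coloured by the number of lists; the shaded band is the canonical transcript. MMP1 and MMP3 show 1 region each in all 9 lists, against 19 at LOXL2.

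The highest ranked region outside each promoter was often closer to another gene. For LOX it lay 108.8 kb downstream in an intron of SRFBP1 (chr5:121969074-121969779), with percentiles of 98.9 and 99.2 in shCtrl, 99.2 and 99.1 in shEZH2, 98.3 and 95.8 in shE2F1, 99.5 in shSUZ12, 89.4 in DMSO and 99.1 in GSK126. Its mean of 97.6 was the highest of the regions at the 9 genes. For MMP9 it was intergenic, 15.3 kb upstream of the TSS (chr20:45993233-45994019). Its percentile was 96.9 in both shCtrl libraries, 91.9 and 89.5 in shEZH2, 95.6 and 98.6 in shE2F1, 88.5 in shSUZ12, 99.6 in DMSO and 98.5 in GSK126. MMP9, a gelatinase without a steady promoter peak, therefore had a strong upstream region in every library, with 46 to 131 tags.

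The 201 bases around these 2 summits are shown because both contain an AP-1 word (capitals), which was present in 29.1% of all regions with a peak in every list. Coordinates are chr20:45993529-45993729 and chr5:121969320-121969520, plus strand.
MMP9 upstream region: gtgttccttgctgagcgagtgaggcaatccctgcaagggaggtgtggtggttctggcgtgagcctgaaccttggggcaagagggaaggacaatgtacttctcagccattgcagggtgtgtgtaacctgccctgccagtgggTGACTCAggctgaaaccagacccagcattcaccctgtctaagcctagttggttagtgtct
LOX downstream region: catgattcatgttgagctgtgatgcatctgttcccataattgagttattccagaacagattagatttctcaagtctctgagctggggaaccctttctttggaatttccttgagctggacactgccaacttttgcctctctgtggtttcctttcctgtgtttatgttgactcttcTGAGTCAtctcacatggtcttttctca

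For 4 genes the top region was the promoter of a neighbour: OXA1L for MMP14 (69.6 kb upstream, mean percentile 93.9), XRCC1 and PINLYP for PLAUR (94.9 kb downstream, 93.4), VCL for PLAU (86.8 kb downstream, 90.2) and LPCAT2 for MMP2 (30.2 kb downstream, 75.5). For LOXL2 it overlapped an exon of CHMP7, 157.4 kb downstream of the TSS, at 91.6. The intergenic top regions of MMP3 (97.4 kb upstream, 73.1) and MMP1 (64.6 kb downstream, 60.6) ranked lowest. That of MMP3 also spread widely, from 50.4 in shEZH2 replicate 2 to 89.6 in shE2F1 replicate 2. Distance alone ties these regions to the 9 genes, and no contact was measured.

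**Figure D4:**
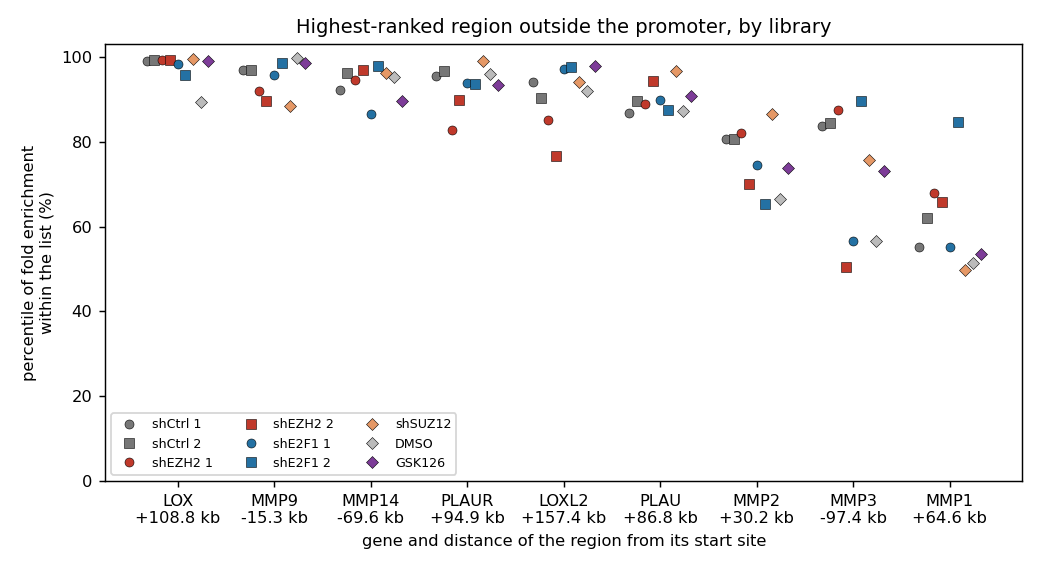
Percentile of the highest ranked region outside the promoter of each gene, 1 point per library, with shape and colour giving the library. The regions at LOX and MMP9 stayed above 88 in every library, while that at MMP3 ranged from 50.4 to 89.6.

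Motif words were counted as a description. Of the 9 genes, MMP14, PLAU, PLAUR and LOX were matched in the RefSeq promoter table, and the AP-1 word was in 1 of these 4 promoters, beside 3.68% of 15345 protein-coding promoters of 300 bases. The GC box, GGGCGG, was in 2 of 4 (59.2% of all) and the hypoxia response word in 3 of 4 (23.8% of all). No E2F word (TTTGGCGC, TTTCCCGC, TTTCGCGC or TTTGCCGC) was in these 4 windows, beside 4.49% of all. The PLAU window (chr10:73910360-73910659) held none of these words. It lay between the peak over the canonical TSS and the open region upstream, and overlapped neither. At the summits of the 83 regions in all lists, 23 windows held an AP-1 word (27.7%), close to the 29.1% of all 40606 regions. The hypoxia response word was in 24.1% of them and in 15.3% of all regions, and an E2F word in 1 of 83. Both strands were searched, and no searched word of one motif contains that of another. Of the 23 windows, PLAU and PLAUR had 6 each, LOXL2 had 5 and LOX had 4.

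With shEZH2, MMP14 was the 1 of 4 promoters lower in both knockdown libraries than in both controls, and no promoter was higher. Its mean percentile was 17.8 against 31.5, a difference of -13.7 points. Over all promoters with a peak in these 4 lists, 29.7% were lower and 10.6% were higher, so 1 in 4 is near the background. With 2 libraries against 2 an exact permutation test cannot go below a two-sided p of 0.333, and no p is given. The difference was -23.5 points without shCtrl replicate 1 and -4.00 without shCtrl replicate 2. The separation of MMP14 was lost when lists were cut to equal length, where the difference was -0.716 points, and with peaks of −log10 q of at least 5, where it was -14.1 points. On the log2 fold enrichment, limma gave a difference of -0.10 ± 0.21 (SE, n = 2 and 2) for the MMP14 promoter, with an adjusted p of 0.927.

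Over all regions at the 9 genes, promoters included, ranks with shEZH2 were more often lower than higher. Of 93 regions with a peak in all 4 lists, 32 were lower and 7 higher in both shEZH2 libraries, beside 31.6% and 11.6% of all such regions in the genome. With lists of equal length the counts were 17 lower and 21 higher (17.8% and 22.7% of all regions), so the balance changed under this setting. The cut also keeps only the most significant peaks and ranks them anew, and the part of list length alone was not tested. At MMP9, 8 of 10 regions were lower and 0 higher, and 3 of 9 were lower with equal lengths. Most of the 8 were closer to other genes. They overlapped the promoters of PLTP, PCIF1, ZNF335 and NCOA5 and an exon of PCIF1, or lay nearest SLC12A5. The remaining ones were the region 15.3 kb upstream and the exonic region of MMP9. MMP14 had 8 of 17 lower, LOXL2 7 of 19 and PLAU 5 of 18. A peak was lost at 9 of 173 regions and gained at 2, beside 7.20% lost and 0.889% gained in the genome. Lost regions included the MMP9 promoter described above and an intronic region of MMP2 (chr16:55495082-55495325), at percentile 22.6 and 22.3 in the controls and absent from the other 7 lists. The strongest distal loss was 72.1 kb upstream of PLAU in an intron of CAMK2G, at 38.1 and 32.6 in the controls. The next was 104.5 kb downstream of MMP14, at 31.2 and 24.9. The strongest gain, 24.8 kb upstream of LOX, was at 19.4 and 21.5 in shEZH2, and also had a peak in shE2F1 replicate 2 and DMSO. Peaks just past the threshold of one list can be missed in a shorter one, and shEZH2 replicate 2 gave the shortest list.

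limma called none of the 85 regions of these genes with a peak in all 6 replicated libraries, and 0.00% of 42809 regions in the genome, at an adjusted p under 0.05 for shEZH2. Regions lacking a peak in any of the 6 lists, gained and lost regions included, were not tested and could not be called. The paper, by its own thresholds, reports regions of higher and of lower accessibility with either knockdown. At an unadjusted p under 0.05 there were 2 of 85 at these genes and 4001 in all. Both were at PLAU. The first lay 45.6 kb downstream (chr10:73956472-73957041), with log2 fold enrichments of 3.10 and 3.29 in shCtrl and 2.82 and 2.25 in shEZH2. The difference was -0.66 ± 0.22 (SE), with a limma adjusted p of 0.350, and it was -0.37 without shEZH2 replicate 2. The second lay 61.9 kb upstream (chr10:73849058-73849412), at 3.76 and 3.57 in shCtrl and 3.31 and 3.09 in shEZH2. It differed by -0.46 ± 0.17 (SE), with a limma adjusted p of 0.418. Next came the exonic region of MMP9, 5.3 kb into the gene, at 3.06 and 3.04 in shCtrl and 2.72 and 2.56 in shEZH2, with a difference of -0.41 ± 0.19 (SE) and a limma adjusted p of 0.539. In each of these regions both shEZH2 values lay below both controls.

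With shE2F1, PLAUR was the 1 of 4 promoters lower in both libraries, by -3.34 points (82.2 against 85.5 on average), and no promoter was higher. Over all promoters tested, 17.0% were lower and 19.2% higher. The PLAUR separation was that of the intron peak. It was lost with a window of 500 bp, where the difference was -0.231 points, and with lists of equal length, where it was -3.72 points. The limma difference of the intron region was -0.06 ± 0.17 (SE), with an adjusted p of 0.951. LOX and LOXL2 differed from the controls by 0.104 and 1.67 points, with overlapping values.

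Of 97 regions at the 9 genes with a peak in the shCtrl and shE2F1 lists, 25 were lower and 9 higher in both shE2F1 libraries, beside 22.6% lower and 16.8% higher in the genome. At MMP9, 4 of 9 were higher and 2 lower. The 4 overlapped the promoters of PLTP, PCIF1, ZNF335 and NCOA5, and the 2 were the exonic region of MMP9 and a region nearest SLC12A5. PLAUR had 6 of 20 lower and LOX 4 of 8. Peaks were lost at 9 of 183 regions and gained at 4, beside 3.81% lost and 2.86% gained in the genome. Both shE2F1 lists held a region that both controls lacked 45.1 kb upstream of MMP14, in an intron of SLC7A7, at 57.4 and 35.1. This was the highest ranked gain, followed by one 75.1 kb upstream of LOX at 35.5 and 33.7 and one 29.1 kb upstream of MMP14 at 24.3 and 22.2. Within genes, a LOXL2 intron gained a peak at 13.0 and 4.58. An MMP14 intron 2.2 kb from the TSS lost one that was at 4.19 and 3.32 in the controls, and the MMP2 intron named above was again without a peak. Losses were counted against the same 2 control libraries for both knockdowns.

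limma called none of the 85 regions with shE2F1 and 0.00% of the 42809 in the genome, and 5 of 85 and 3894 in all had an unadjusted p under 0.05. Of these 5, 3 were lower and 2 higher with shE2F1. The 2 higher regions lay 179.3 kb downstream of the LOXL2 TSS and 30 kb downstream of the PLAU TSS. Their differences were 0.43 and 0.42. The lowest p at these genes was at the region 61.9 kb upstream of PLAU, at 3.07 and 3.28 in shE2F1 on the log2 scale, with a difference of -0.49 ± 0.17 (SE) and a limma adjusted p of 0.414. The control values are those given for shEZH2, so the results for this region share their controls. A LOXL2 intron region 51 kb from the TSS was at 2.24 and 2.42 in shCtrl and 1.69 and 1.88 in shE2F1, a difference of -0.54 ± 0.21 (SE) with a limma adjusted p of 0.452. The region 47.2 kb upstream of MMP14 was at 3.13 and 3.32 in shCtrl and 2.75 and 2.74 in shE2F1. It differed by -0.48 ± 0.19 (SE), with a limma adjusted p of 0.458. The median difference over the 85 regions was 0.00 with shEZH2 and -0.01 with shE2F1, beside 0.01 and 0.00 over all regions.

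**Figure D5:**
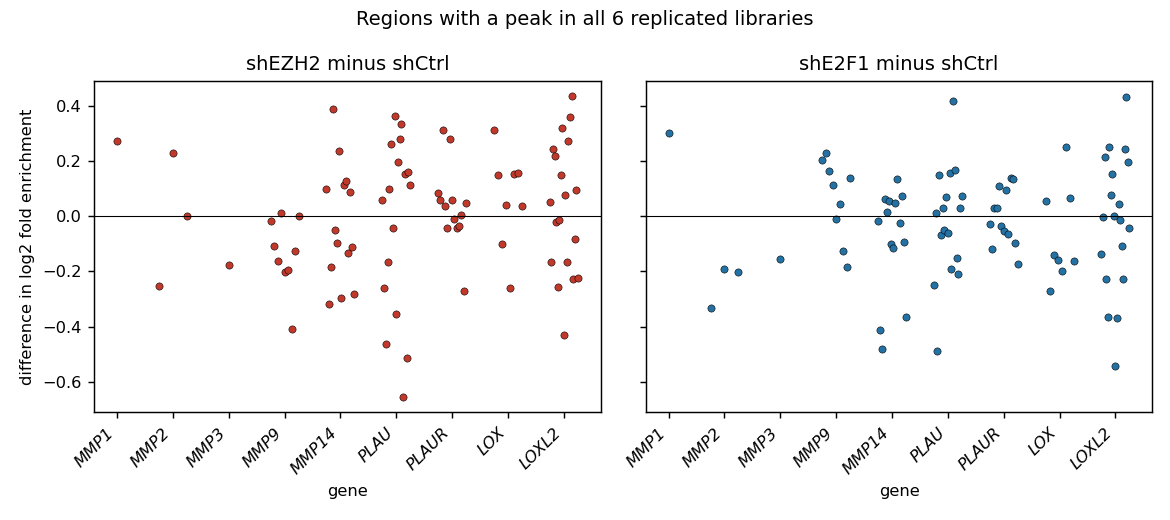
Difference in log2 fold enrichment from shCtrl for shEZH2 (left) and shE2F1 (right), 1 point for each region with a peak in all 6 replicated libraries, grouped by gene and ordered by distance from the start site. The points lie on both sides of 0, between -0.66 and 0.43, and none passed the limma threshold; both panels share the same control libraries.

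GSK126 and shSUZ12 had 1 library each, so their values have no replicate check. Against DMSO, the MMP14 promoter was 17.6 points higher with GSK126 (26.2 against 8.54) and the LOXL2 promoter differed by -19.4 points (49.6 against 69.0). Over all promoters, 6.87% were at least 10 points higher and 15.4% at least 10 points lower. Against the shCtrl libraries in place of DMSO, MMP14 with GSK126 differed by -5.34 points, so its direction turned with the control. With shSUZ12, the PLAUR intron peak lay above both shCtrl libraries (88.4), but by −log10 p PLAUR differed from their mean by -0.00830 points. The PLAUR peak over the TSS was at 0.566 with shSUZ12 against 4.47 and 6.27 in shCtrl. It was as low with DMSO (0.826) and GSK126 (0.490). With shSUZ12, MMP14 (19.0) and LOXL2 (53.0) lay below both shCtrl libraries. In the genome 52.6% of promoters were above and 19.2% below. Against DMSO, MMP14 with shSUZ12 was 10.4 points higher.

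The wider pathway was counted from lists of related genes. Of 17 other metalloproteinases, 2 had a promoter peak in all 9 lists and 7 in none, beside 60% and 29.1% of all protein-coding promoters. The number with a peak in all lists was 6 of 8 among inhibitors of these proteases. Among other plasminogen activation genes it was 5 of 6, and among the other lysyl oxidases 3 of 3. For matrix substrates it was 6 of 9 and for other pericellular proteases 5 of 8. With shEZH2, promoters lower in both libraries numbered 2 of 2 other metalloproteinases, 1 of 6 inhibitors, 1 of 5 plasminogen activation genes, 1 of 3 lysyl oxidases, 1 of 6 matrix substrates and 1 of 5 other proteases, and 1 of those 5 was higher, beside the 29.7% lower and 10.6% higher of all promoters. With shE2F1 they numbered 1 of 5, 0 of 7, 2 of 5, 0 of 3, 1 of 7 and 0 of 6, and those higher 0, 1, 0, 0, 3 and 2, in the same order of lists, beside 17.0% lower and 19.2% higher of all promoters. The 3 higher matrix promoters include COL4A1 and COL4A2, collagen IV genes that share 1 promoter peak.

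From these lists 3 genes met the rule for being named. The promoter of MMP19, another metalloproteinase, was at 66.1 and 73.1 in shCtrl, 37.6 and 46.8 in shEZH2, and 62.3 and 54.8 in shE2F1. That of FN1, which encodes fibronectin, was at 52.9 and 50.6, 44.8 and 29.3, and 36.0 and 36.0. Both were lower than both controls in both knockdowns, which were set against the same controls. VTN, which encodes the urokinase receptor ligand vitronectin, had a promoter peak at 2.95 and 24.4 in shCtrl and none in either shEZH2 list. It had none in shSUZ12 either, and was at 31.5 and 23.6 in shE2F1, 41.2 in DMSO and 13.5 in GSK126.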

How the data were processed

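ATAC-seq peak lists of 9 MDA-MB-231 libraries were used, grouped by their labels. Per the study's methods, the authors aligned reads with Bowtie2 (at most 4 alignments reported per read) and shifted them by 4 and -5 bp for the Tn5 cut before calling peaks in each library; the caller and its version are not given in the sources used here. The submitters' processing notes name hg38. The deposited columns are a score, a fold enrichment (ratio to local background), −log10 p and −log10 q. The tags at a summit and the background were recovered from fold enrichment and −log10 p, and 100% of peaks gave whole tags (largest error 0.00118 in −log10 p). No read totals were used, so the most frequent background stands for depth.

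Regions were peaks merged at 1 bp of overlap. TSSs came from GENCODE 44. limma 3.58.1 (R 4.3.3) was run on log2 fold enrichment, quantile normalised with a variance trend, over regions with a peak in the 6 replicated libraries, with Benjamini-Hochberg adjustment; it was tested on simulated data. Named regions were the highest ranked region outside each promoter, gained or lost regions in promoters and gene bodies, the 3 strongest gained or lost distal regions per knockdown and the 3 lowest limma p-values. The genes and lists were chosen with earlier results of these data known. Alternatives were equal list lengths, −log10 q of at least 5, other windows, summits inside the window, start sites and region definitions, other ranking, scaling and controls, a replicate block and leaving out each replicate. Counts of region percentiles and their alternatives were added after seeing the data. Sequences were read from GRCh38 and from RefSeq promoters (250 bases before to 50 after the start).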

Additional observations from a re-analysis of the deposited data

How the results depend on the processing

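With lists of equal length, genes with no promoter peak numbered 4, and promoters lower than shCtrl numbered 0 with shEZH2 and 0 with shE2F1. Regions numbered 4 gained and 3 lost with shEZH2, beside 2.68% and 3.88% of all regions, and 1 lost with shE2F1, beside 3.74%. Regions higher in percentile numbered 21 with shEZH2 and 14 with shE2F1, beside 22.7% and 18.6% of all regions. Those lower with shEZH2 numbered 17, beside 17.8%. With peaks of −log10 q of at least 5, 0 promoters were lower with shEZH2. With a window of 500 bp 2 were lower with shEZH2 and 0 with shE2F1. With a window of 2 kb, or any annotated start, 1 gene had no promoter peak. Ranked by −log10 p, 3 promoters were lower with shEZH2 and 2 with shE2F1, and 11 regions were higher with shEZH2, beside 9.15% of all regions. By that rank 0 promoters were higher with shSUZ12, where PLAUR differed by -0.00830 points. With a distal window of 50 kb, 2 regions were lost with shEZH2 and 3 with shE2F1, beside 7.20% and 3.81% of all regions. The narrower window holds fewer regions at these genes by construction. With the other control, 0 promoters were higher with GSK126 and 3 with shSUZ12, and MMP14 differed by -5.34 points with GSK126 and by 10.4 with shSUZ12. Shares over all promoters were not computed under these settings, so the promoter counts have no background to be read against. Region counts here and below are given without the total at these genes under each alternative, so they cannot be compared directly with the shares. The causes were not tested.

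Leaving out 1 library in turn gave 0 to 1 promoters higher and 1 to 3 lower with shEZH2, and 0 to 2 higher and 1 to 3 lower with shE2F1. The share over all promoters was not computed here either, so these promoter counts have no background. Gained regions numbered 4 to 10 and lost regions 11 to 28 with shEZH2, and 6 to 21 and 11 to 23 with shE2F1. Regions higher in percentile numbered 11 to 29 and lower 46 to 56 with shEZH2, and 16 to 43 and 34 to 59 with shE2F1. Without shCtrl replicate 1, 17 were higher and 46 lower with shEZH2, beside 21.4% and 46.9% of all regions. With shE2F1 they were 18 and 43, beside 28.8% and 36.6%. Without shCtrl replicate 2, 24 were higher and 49 lower with shEZH2, beside 22.9% and 44.6%. With shE2F1 they were 30 and 37, beside 30.7% and 35%. The highest counts came without shEZH2 replicate 1 for its losses (28, beside 17.2% of all regions) and replicate 2 for its gains (10, beside 6.97%), and without shE2F1 replicate 1 for its gains (21, beside 13.1%) and replicate 2 for its losses (23, beside 12.9%). Fewer lists to satisfy give more calls by construction. limma called 0 regions at these genes under every setting run for either knockdown. The labels number the replicates of shCtrl, shEZH2 and shE2F1 alike. The correlations of replicate differences were 0.0294, 0.0744 and -0.0124, which shows little shared replicate effect in this measure. Whether libraries with the same number were prepared together cannot be read from these values. With a replicate block limma called 0 regions for shEZH2 and 0 for shE2F1, and 3 and 5 regions at these genes had an unadjusted p under 0.05. Depth limits the weak peaks: a peak near the threshold of a deep list can be missing from a shallow one.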

Other observations

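Among the other lysyl oxidases, LOXL4 had a promoter window whose percentile fell into separate levels. It was 76.8, 73.3, 82.0, 78.7 and 87.2 in both shCtrl libraries, shEZH2 replicate 1, shE2F1 replicate 1 and shSUZ12. It was 0.738 in shEZH2 replicate 2, 8.85 in shE2F1 replicate 2, 0.125 in DMSO and 0.284 in GSK126. In the first 5 libraries the strongest peak had its summit between -1418 and -1380 bp from the start site, outside the window of 1 kb, and reached into the window with 89 to 256 tags. In the other 4 the strongest peak in the window held 31 to 58 tags, with its summit inside the window. The level of this promoter, ranked by 1 bp of overlap, thus turned on whether a peak with its summit outside the window overlapped it. Whether the other 4 libraries held that peak beyond the window was not tested.

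MMP10, a stromelysin beside MMP1 and MMP3 on chromosome 11, had a promoter peak in 4 lists. It was at percentile 48.4 in shCtrl replicate 1, 31.5 and 38.9 in the shEZH2 libraries and 26.7 in shSUZ12, with 14 to 18 tags. The 4 summits lay within 32 bp of the start site.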
